A study of Sus scrofa with 6 samples.

Results

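The transcriptome of pig embryos at the 4-cell stage under control culture was described from 3 of the 6 poly(A) RNA libraries of the series, those whose labels give a culture temperature of 38.5 °C. The other 3 libraries, from embryos kept at 41.5 °C, entered no value. All 3 control libraries came from wild-type oocytes that were activated electrically (2 pulses, each lasting 60 µs at 120 V), washed in the culture medium PZM-5 with 4 mg/mL bovine serum albumin, and cultured under mineral oil in 5% CO2 for 4 days. The embryos therefore developed from activated oocytes, and no step with sperm is named in the labels. Per the labels, mRNA was isolated on oligo(dT) beads, about 300 4-cell samples were used for library construction, and cDNA was prepared with SMART-Seq v4 chemistry, a full-length method for low input that keeps no strand information. No label ties the 3 replicates to separate cultures. Every SD below (n = 3) is therefore the spread over these libraries and may be only technical. In such pooled samples, fewer cells of a type and less RNA per cell cannot be told apart.

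A growing oocyte stores mRNA for the first divisions of the embryo, and most of this store is cleared as the embryonic genome starts to be transcribed. In pigs the main wave of genome activation is placed around the 4-cell stage, so an embryo of this age holds stored oocyte transcripts, transcripts made by its own nuclei, and the large mitochondrial population inherited from the egg. Levels are given below in TPM, the usual scaled transcript abundance, which corrects for gene length and has one fixed sum per library, so that genes can be compared with each other. They are levels in RNA isolated on oligo(dT) beads, so transcripts with a short or missing poly(A) tail may be under-represented.

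Levels are given first for 6 genes used as markers of oocytes and early embryos, and all 6 were detected in every library. Detection alone does not check the label, because PTTG1, PCNA and DNMT1 have roles in cell division and DNA copying that are not particular to embryos. GDF9, a growth factor secreted by the oocyte, was at 84.0, 120.4 and 144 TPM, and BMP15, its X-linked relative, was at 348, 518 and 441 TPM. DPPA3, which protects the maternal genome from demethylation, was at 2287, 1934 and 1658 TPM. PTTG1 encodes securin, the inhibitor of the protease that separates sister chromatids, and stood at 12538, 15145 and 14228 TPM. PCNA, the sliding clamp of DNA polymerases, was at 4984, 7819 and 7954 TPM, and DNMT1, the maintenance DNA methyltransferase, was at 1397, 2396 and 2469 TPM. GDF9, PCNA and DNMT1 were lowest in replicate 1, while DPPA3 was highest there.

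Each library held 28869484 to 30079385 reads assigned to genes, so a gene with no read in a library is limited to about 0.0997 to 0.104 CPM (counts scaled to the library total) by counting error alone (3 counts), and to 0.0341 over all 87987303 reads. Replicate 1 stood apart from the other two. Over 10254 genes at a mean of 1 TPM or more, Pearson's r of log2(TPM + 1) was 0.983 between replicates 2 and 3, 0.968 between replicates 1 and 2 and 0.933 between replicates 1 and 3. These coefficients are across genes, which are not independent replicates. Values of the main genes are therefore given per library, others as mean ± SD, and the count of genes that differ between libraries is also given without replicate 1.

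Of the 30376 annotated genes, 9120 (30.02%) were at 1 TPM or more in all 3 libraries and are called detected here. Among 20674 protein-coding genes, 7709 (37.3%) were detected, with a median of 9.89 TPM among those detected and 0.456 TPM over all of them. At the other end, 7356 genes (24.2%) had no read in any library, and 4485 protein-coding genes (21.7%) had 3 or fewer reads in all 3 together. By mean level, 87 genes were at 1000 TPM or more, 852 at 100 to 1000, 3417 at 10 to 100 and 5898 at 1 to 10. A further 12766 genes had reads but a mean under 1 TPM.

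The message was concentrated in very few genes. In replicates 1, 2 and 3, 22, 22 and 20 genes held 50% of all TPM, and the 10 most abundant genes held 40.8 ± 1.35%. The first 100 genes held 65.8 ± 0.578% and the first 1000 held 87.5 ± 0.677%. Mitochondrial genes made much of this concentration: among nuclear genes alone, 128, 104 and 102 genes held 50% of the nuclear TPM. Replicate 1 needed the most nuclear genes.

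**Figure D1:**
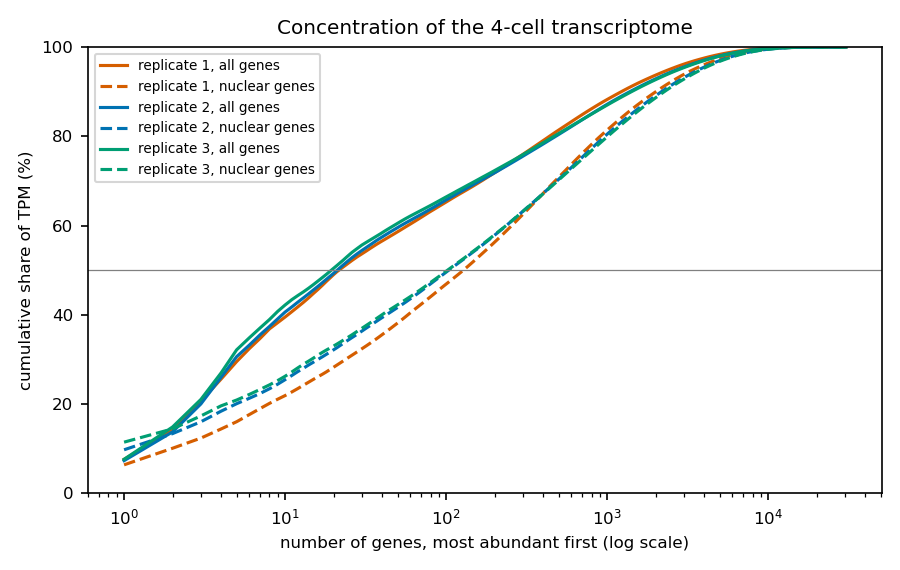
Cumulative share of TPM (y axis, %) held by the most abundant genes (x axis, number of genes, log scale) in each of the 3 control libraries, for all genes (solid lines) and for nuclear genes only (dashed lines). The solid lines cross 50% at 20 to 22 genes and the dashed lines at 102 to 128, and the dashed line of replicate 1 runs below those of replicates 2 and 3 over the first 100 genes.

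The mitochondrial genome, which encodes subunits of the respiratory chain together with its own tRNA and rRNA, gave 37.1 ± 1.31% of TPM. Its 13 protein-coding genes alone held 30.9, 28.5 and 29.7% in the 3 libraries and all 13 were above 1000 TPM. ATP6, a subunit of the ATP synthase and the most abundant transcript of the table, was at 76244, 73294 and 76337 TPM. COX1, the catalytic subunit of cytochrome c oxidase, was at 64879, 59579.8 and 59172 TPM. In TPM these levels hardly differed between libraries, and none of the 13 genes varied by 1.5-fold. COX3 followed at 49166 ± 2806 TPM and ND4, of complex I, at 27420.5 ± 1608 TPM, while the lowest was ND3 at 1532 ± 71.1 TPM. ATP6 shares bases with ATP8 and COX3, ND4 with ND4L and ND5 with ND6, so reads in the shared bases may have been counted for either gene.

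A mitochondrial tRNA also ranked near the top, at 6.17 to 6.55% of TPM. This is the tRNA-Ser gene at positions 8059 to 8129 of the mitochondrial genome on the minus strand, 71 bases long, which begins 3 bases after the end of COX1 (6511 to 8055, plus strand). It held 87.7 to 89.1% of all tRNA TPM. Its deposited coverage was 1.01, 1.08 and 1.04 times that of COX1, whereas the second mitochondrial tRNA-Ser (12806 to 12864) had a coverage of 287, 238 and 277 against 153296, 130669 and 128705 for COX1. The coverage of this tRNA gene was thus within 10% of that of its neighbour in every library. With a kit that does not mark strand, transcripts of the tRNA and longer COX1 transcripts that cross it cannot be told apart.

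By the Type column of the deposited table, protein-coding genes took 94.7, 93.9 and 93.4% of the reads in replicates 1, 2 and 3 (94.0 ± 0.670%). Long non-coding RNA genes took 4.37, 5.13 and 5.59%. Replicate 1 had the highest share of protein-coding and the lowest share of long non-coding reads. Of the 5605 long non-coding genes, 1220 were detected (21.8%), against 37.3% of protein-coding genes. The tRNA genes took 0.388 ± 0.0197% of reads and, being short, 7.24 ± 0.204% of TPM. Pseudogenes held 0.226% of reads, rRNA genes 0.199% and miscellaneous RNA genes 0.103%. Precursors of miRNA gave 575 reads in all, and mature miRNAs, which lack a poly(A) tail, are not measured by this assay. Immunoglobulin and T-cell receptor segments were close to silent: 111 of 121 variable segments and 16 of 16 constant regions had no read, which allows each of them up to 0.0341 CPM.

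A single locus led the long non-coding class, which held 5.32 ± 0.720% of TPM, without making most of it. LOC110260131 (chromosome 3, 31304747 to 31307410, plus strand), an uncharacterized RNA, was at 14013, 17048 and 18297 TPM and held rank 3 among all nuclear genes. Replicate 1 was lowest, and the highest library exceeded it by 1.31-fold. The next long non-coding genes were LOC102160045 at 1174 ± 249 TPM, LOC102162289 at 992 ± 141 TPM, LOC110261584 at 980.0 ± 118 TPM and LOC110255964 at 945 ± 299 TPM, so the first stood more than 10-fold above the second. Among miscellaneous RNAs, LOC106504851 was at 413, 1036 and 1617 TPM, lowest in replicate 1 and highest in replicate 3. The 18S ribosomal RNA gene RN18S followed the same order, at 50.5, 201 and 336 TPM. Because RNA was isolated on oligo(dT) beads, these values need not show the abundance of this rRNA in the embryo. Among pseudogenes, LOC100620409 at 376 ± 35.7 TPM and LOC100620318 at 343 ± 34.0 TPM led. Both lie within 6 kb on chromosome 9, and reads of near-identical copies may have been split between them.

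Nuclear transcripts were led by genes of the egg and of the cell cycle. The 30 most abundant nuclear genes, 29 of them protein-coding, had means of 2058 to 58136 TPM. Together they held 22.1 ± 2.09% of all TPM and 35.1 ± 2.70% of nuclear TPM. The last of them, DPPA5, was hardly above the next gene, which was at 2054 TPM. Of the 30, 7 carry only locus names and 6 overlap another gene. In 18 of the 30 the highest library was less than 1.5 times the lowest, and in 2, BTG4 and SAT1, it was more than 2 times.

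**Figure D2:**
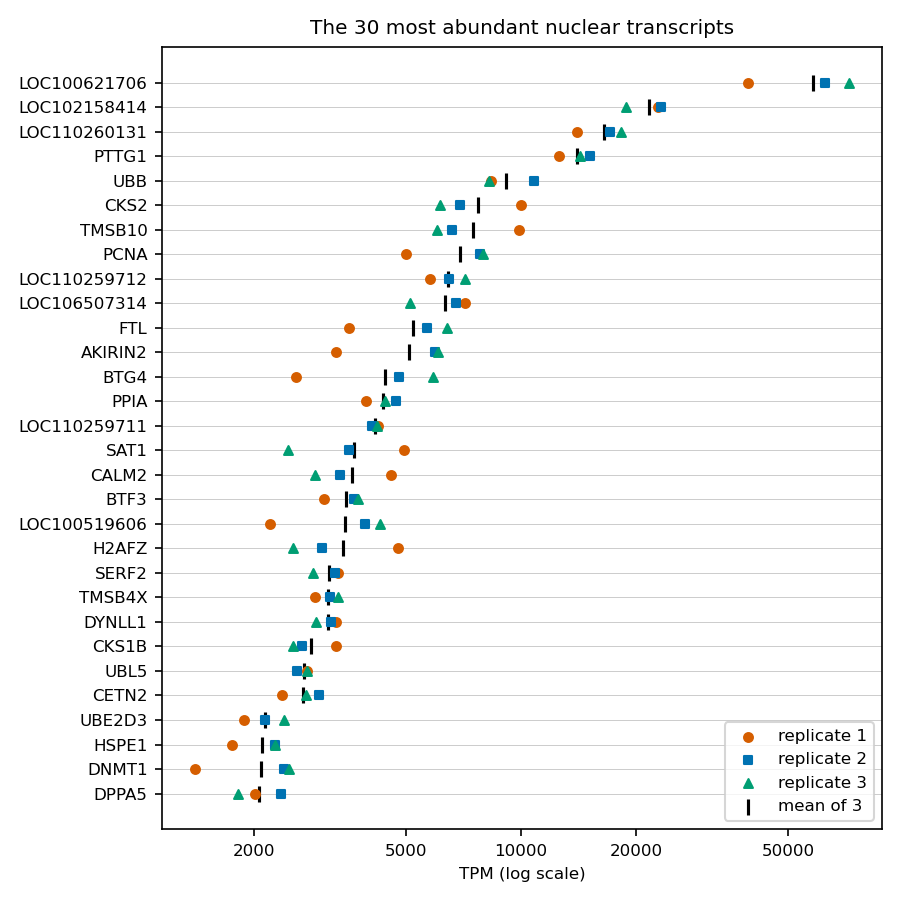
TPM (x axis, log scale) of the 30 nuclear genes of highest mean in the 3 control libraries; each symbol is 1 library and the vertical tick is the mean of 3. LOC100621706 lies apart at the top, at 39339.8 to 72442 TPM, and the other 29 genes lie at 23211 TPM or less.

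The most abundant nuclear transcript was LOC100621706, annotated as gametocyte-specific factor 1-like (chromosome 5, 19669343 to 19676417, minus strand). Its relative GTSF1 is a small zinc finger protein that works with PIWI proteins in the silencing of transposons in germ cells. LOC100621706 was at 39339.8, 62625 and 72442 TPM, or 3.93 to 7.24% of a library. Replicate 1 was lowest and replicate 3 highest, 1.84-fold apart. GTSF1 itself lies directly beside it on the same strand (chromosome 5, 19639326 to 19661773, minus strand) and was at 67.7, 64.9 and 68.4 TPM, with little spread. GTSF1L, another gene of the name, was at 0.103 ± 0.0850 TPM from 7 reads. LOC100621706 was thus far above its neighbour in every library, although reads of similar copies may have been assigned to either.

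Genes for oocyte-secreted proteins formed the second group. They lie together on chromosome 2 between 11426042 and 11637942, 212 kb that hold 6 genes, all detected. The list was added with the data known and its 5 members set the span, so the levels inside it and beside it are description only. The cluster gave 3.47, 3.62 and 3.27% of all TPM, a narrow range on this scale. LOC102158414, placenta-specific protein 1-like, ranked second among nuclear genes at 22866, 23211 and 18795 TPM. LOC110259712, annotated as a putative oocyte-secreted protein 1 homolog, was at 5756, 6458 and 7116 TPM, and LOC110259711, of the same name, was at 4205, 4061 and 4186 TPM. The latter was among the steadiest abundant genes of the table in TPM, with libraries 1.04-fold apart. LOC100512212, oocyte-secreted protein 2, was at 1806 ± 309.6 TPM, LOC110259255, oocyte-secreted protein 1-like, at 460.4 ± 74.1 TPM, and the long non-coding LOC110259256, which overlaps it, at 35.2 ± 15.1 TPM. The genes on either side were far below those of the cluster. MS4A2, of mast cells, was at 1.25 ± 0.203 TPM and LOC110259254 had no read. On the other side, TCN1, a vitamin B12 carrier, was at 0.794 ± 0.350 TPM and GIF, gastric intrinsic factor, at 0.252 ± 0.0726 TPM. The median over all protein-coding genes was 0.456 TPM, so MS4A2 and TCN1 were not low beside it. TCN1 overlaps the end of LOC102158414 on the other strand.

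Cell cycle regulators formed a further group. The list of 35 cyclins, cell cycle kinases and their partners held 3.14 ± 0.0581% of TPM. Of these 35, 30 (85.7%) were detected, against 37.3% of all protein-coding genes. After PTTG1 came CKS2, a small subunit that binds cyclin-dependent kinases, at 10017, 6922 and 6136 TPM. Its paralog CKS1B was at 3269, 2672 and 2519 TPM, and both were highest in replicate 1. BTG4, which recruits the deadenylase that shortens maternal mRNA tails, ran the other way, at 2563, 4795 and 5871 TPM. Further down stood CDK1 at 1069, 589 and 376 TPM, AURKA at 266, 428 and 666 TPM, CCNB1 at 327, 455 and 447 TPM and CCNA2 at 346, 293 and 229 TPM. CDK1 was highest in replicate 1 and AURKA lowest there. WEE2, the oocyte kinase that holds CDK1 in check, was at 84.5, 172 and 259 TPM. The DNA replication list held 0.834 ± 0.176%, with 32 of 39 detected. PCNA made most of it, followed by GMNN, the inhibitor of repeat licensing, at 457 ± 37.5 TPM, RPA3 at 336 ± 27.4 TPM and ORC6 at 167 ± 54.7 TPM.

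Ubiquitin, actin monomer binding and general upkeep completed the list of abundant genes. UBB, which encodes chained copies of ubiquitin, was at 8318, 10792 and 8215 TPM, and the conjugating enzyme UBE2D3 was at 1874, 2136 and 2393 TPM. TMSB10, a thymosin that binds actin monomers, was at 9873, 6578 and 6024 TPM. It was highest in replicate 1, while its relative TMSB4X was level at 2889, 3148 and 3317 TPM. FTL, the light chain of the iron store ferritin, was at 3545, 5658 and 6403 TPM, and AKIRIN2, a nuclear protein that helps carry proteasomes into the nucleus, was at 3269.7, 5963 and 6042 TPM. Both were lowest in replicate 1. PPIA, a prolyl isomerase, was at 3923, 4706 and 4409 TPM and BTF3, a subunit of the complex that meets nascent chains at the ribosome, at 3040.2, 3641 and 3732 TPM. SAT1, an enzyme of polyamine breakdown, was at 4938, 3539 and 2456 TPM, and CALM2, a calmodulin gene, was at 4569.8, 3356 and 2885 TPM. Both were highest in replicate 1. LOC100519606, ret finger protein-like 4A, was at 2199, 3895 and 4274 TPM and LOC106507314, an uncharacterized gene with 3 overlapping neighbours, at 7113, 6744 and 5113 TPM. The remaining members of the 30 were SERF2 at 3137 ± 251 TPM, DYNLL1, a dynein light chain, at 3115 ± 195 TPM, UBL5 at 2696 ± 93.6 TPM, CETN2, a centrin of the centrosome, at 2679 ± 299.8 TPM, and HSPE1, the mitochondrial co-chaperonin, at 2093 ± 295 TPM.

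Besides the chromosome 2 cluster, 2 further neighbourhoods of genes that are active in eggs and early embryos stood out in position. Like that cluster, both were chosen with their values known. On chromosome 1, 52944189 to 53007877 (63.7 kb), all 4 annotated genes were detected and together gave 0.369 ± 0.0274% of TPM. LOC100511846, KH homology domain-containing protein 1, was at 1448, 1344 and 1248 TPM and DPPA5, a related RNA-binding protein, at 2009.7, 2352 and 1811 TPM. KHDC3L was at 4.95, 10.1 and 14.4 TPM and OOEP at 171, 277 and 369.8 TPM, both members of the subcortical maternal complex and both lowest in replicate 1. The flanking genes KCNQ5 and DDX43 were at 0.129 ± 0.0492 TPM and 22.0 ± 6.09 TPM. On chromosome 5, 62835926 to 62939086 (103 kb), 5 of 6 genes were detected, at 0.414 ± 0.0154% of TPM. LOC100511133, DPPA3-like, was at 1604, 2036 and 2092 TPM, close to DPPA3 in level. NANOGNB was at 265, 150.2 and 125 TPM, NANOG at 79.9, 82.8 and 75.7 TPM and GDF3 at 5.05, 5.70 and 7.66 TPM. Reads of DPPA3 and its similar neighbour may have been assigned to either.

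Most genes of protein synthesis and respiration were detected, against 37.3% of all protein-coding genes. The 82 cytosolic ribosomal protein genes gave 3.05, 1.87 and 1.44% of TPM in replicates 1, 2 and 3, and 79 were detected, with a median of 188 TPM. RPS20 was at 1906, 1432 and 1278 TPM, FAU, which encodes a ubiquitin-like fusion of ribosomal protein S30, at 1922, 1510.1 and 1118 TPM, and RPL27 at 1861, 1020.0 and 734 TPM. All 3 were highest in replicate 1 and lowest in replicate 3. The 3 undetected members were RPL10L at 1.73 ± 0.872 TPM, RPL3L at 0.0205 ± 0.0356 TPM and a second RPL18 locus on chromosome 1 with no read, while the RPL18 gene on chromosome 6 had reads in every library. Genes with locus names whose product is a ribosomal protein, many of them processed copies, added little, at 0.0122 ± 0.00555%. Translation factors held 0.915 ± 0.175% and were detected less completely, in 54 of 68 cases (79.4%). They were led by EIF1 at 2054 ± 297 TPM, EIF3M at 1151, 771 and 554 TPM, EIF5B at 789 ± 181 TPM and TPT1 at 783 ± 299.6 TPM. Nuclear subunits of the respiratory chain held 1.17 ± 0.344%, with 67 of 71 detected. Their leading genes were COX6C at 1547 ± 525 TPM, COX7A2 at 1850.0, 799 and 511 TPM and NDUFA1 at 902 ± 76.5 TPM. Mitochondrial ribosomal proteins held 0.446 ± 0.0715% (72 of 77 detected), with MRPS17 highest at 491 ± 129 TPM.

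Lists of RNA and protein processing were detected more completely than protein-coding genes as a whole. Splicing factors (74 of 80 detected) held 1.09 ± 0.157% of TPM, with LSM7 at 1114 ± 132 TPM and SNRPD1 at 931 ± 94.5 TPM. Proteasome genes (43 of 48) held 0.509 ± 0.0854%, with PSMA2 at 1209.8 ± 358 TPM and PSMB2 at 1187 ± 120.0 TPM. Ubiquitin and its conjugating enzymes (30 of 37) held 1.51 ± 0.140%. Chaperones (54 of 80) held 0.642 ± 0.0675%, in which DNAJA1, after HSPE1, was at 577 ± 52.5 TPM, HSP90AA1 at 536 ± 144 TPM and CCT8 at 435 ± 113 TPM. Their detected shares ran from 67.5% for chaperones to 92.5% for splicing factors and compare with 37.3% detected over all protein-coding genes. Among RAB GTPases, the switches of vesicle traffic, 37 of 68 were detected, and RAB11A, of recycling endosomes, led by far at 1978, 1645 and 1178 TPM.

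**Figure D3:**
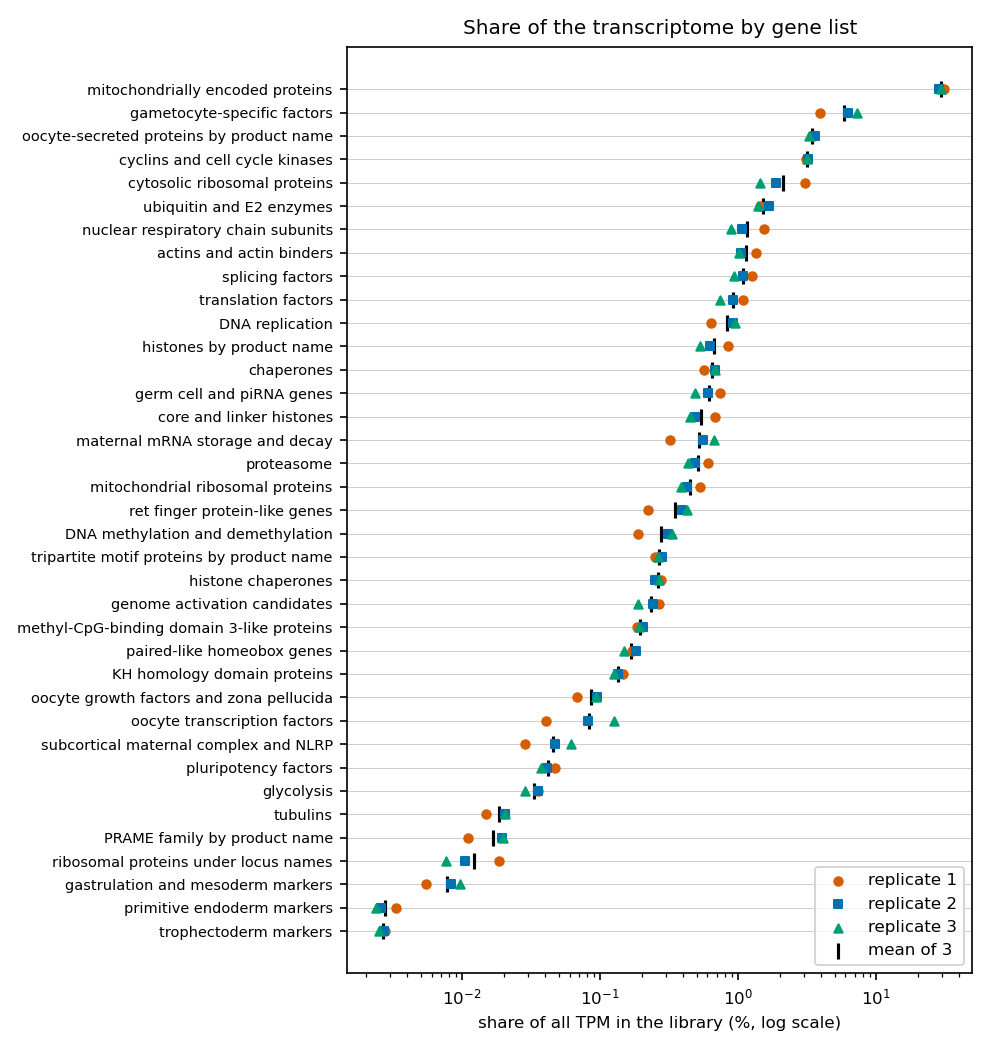
Share of all TPM (x axis, %, log scale) held by each gene list (y axis) in each control library; each symbol is 1 library and the vertical tick is the mean of 3. Mitochondrially encoded proteins lead at 28.5 to 30.9%, followed by gametocyte-specific factors and oocyte-secreted proteins. The latter 2 lists were added later with the data known. LOC100621706 alone gives 58136 of the mean 58203 TPM of the gametocyte-specific list. Glycolysis holds a mean of 0.0333% and tubulins 0.0186%. Ribosomal proteins are highest in replicate 1, and gametocyte-specific factors and maternal mRNA storage and decay are lowest there.

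Glycolysis enzymes, tubulins and beta actin were low in TPM beside these classes. The glycolysis list held 0.0333 ± 0.00411% of TPM. Of its 18 genes 10 (55.6%) were detected, against 37.3% of all protein-coding genes, so the class was low in level and not in detection. LDHB, the lactate dehydrogenase subunit of the egg, led at 241, 235 and 173 TPM, while PGK1 was at 53.9 ± 11.2 TPM and LDHA at 21.7 ± 9.17 TPM. ALDOA was at 0.377 ± 0.0728 TPM and ENO1 at 0.759 ± 0.111 TPM, both undetected by the criterion used. Tubulins held 0.0186 ± 0.00327%, with TUBA1B at 59.4 ± 12.4 TPM, TUBA1A at 41.8 ± 4.76 TPM, TUBE1 at 31.2 ± 6.55 TPM and TUBB4B at 30.5 ± 3.97 TPM. ACTB, beta actin, was at 3.02, 4.27 and 6.05 TPM, rank 6275 among nuclear genes, and ACTG1 was at 21.7, 42.0 and 50.03 TPM. GAPDH was at 7.63, 11.9 and 10.3 TPM, rank 4333. Of 17 genes often used as references, 13 (76.5%) were detected, against the same 37.3%. Levels over the 17 spanned PPIA at 4346 TPM to GUSB at 0.457 ± 0.219 TPM. H2AFZ, a histone variant, was at 4748, 3004 and 2521 TPM, and RPLP0 and HPRT1 were at 308 ± 38.5 TPM and 90.1 ± 20.2 TPM. PPIA varied 1.20-fold over the 3 libraries and RPLP0 1.27-fold, while H2AFZ varied 1.88-fold and ACTB 2.01-fold.

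Genes of the oocyte and germ cell lists were widely detected. Of 80 genes in 5 such lists, 68 (85.0%) were detected and 4 (5.00%) had 3 or fewer reads, against 37.3% and 21.7% over all protein-coding genes. The 80 include mRNA decay genes that are not particular to oocytes, such as CNOT7 and YTHDF2. Growth factors and zona genes had 7 of 8 detected, and oocyte transcription factors 9 of 11. Subcortical maternal complex and NLRP genes had 7 of 11 (63.6%) detected. In the zona pellucida, the coat of the egg, ZP4 was at 170.3, 231 and 252 TPM, ZP2 at 60.4, 54.98 and 66.2 TPM and ZP3 at 9.43, 16.3 and 20.6 TPM. ZP4 and ZP3 were lowest in replicate 1. The order ZP4, ZP2, ZP3 was the same in every library. H1FOO, the linker histone of oocytes, was at 292, 670.3 and 1064 TPM, and NPM2, a histone chaperone of the egg, at 17.1, 31.7 and 56.1 TPM. Both were lowest in replicate 1 and highest in replicate 3. ZAR1L was at 37.3 ± 17.8 TPM and LHX8, a transcription factor of early follicles, at 33.1 ± 1.54 TPM. By contrast, NOBOX was at 1.40 ± 0.955 TPM and FIGLA at 4.30 ± 1.82 TPM, and SOHLH1 had no read. In the list of subcortical maternal complex and NLRP genes, NLRP9 was at 89.0, 135 and 186 TPM and PADI6 at 14.1, 32.5 and 32.0 TPM. All 7 detected genes of this list were lowest in replicate 1. NLRP5, a founding member of the maternal complex, was at 1.08 ± 0.503 TPM and TLE6 at 2.01 ± 0.833 TPM.

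The machinery that stores and clears maternal mRNA was broadly present, with 25 of 27 genes (92.6%) detected, against 37.3% of all protein-coding genes. Besides BTG4, CNOT7, a catalytic deadenylase, was at 376, 461 and 456 TPM. IGF2BP3, an mRNA-stabilizing protein, was at 66.3 ± 18.9 TPM, LSM14A, of repressed mRNA particles, at 34.9 ± 6.26 TPM, YTHDF2, a reader of methylated adenosine in mRNA, at 27.0 ± 4.76 TPM and CPEB4 at 18.1 ± 1.18 TPM. Within the germ cell list (23 of 26 detected), SYCP3, of the meiotic chromosome axis, was at 2440.1, 1245 and 1006 TPM, highest in replicate 1. GTSF1, given above, was the next after DPPA2 in this list. Among PIWI proteins, PIWIL1 was at 11.02, 16.9 and 19.2 TPM, PIWIL3 at 10.9 ± 3.12 TPM, PIWIL2 at 2.51 ± 0.455 TPM, and PIWIL4 had 5 reads. MAEL was at 23.5 ± 10.6 TPM and DDX4, the germ line helicase, at 4.24 ± 0.449 TPM. NANOS1 was at 17.3 ± 3.90 TPM and NANOS2 had no read.

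In chromatin, DNMT1 was on another scale than the other enzymes of DNA methylation. DNMT1 held rank 29 among nuclear genes by TPM and rank 3 by read count. The de novo enzymes DNMT3A and DNMT3B were at 3.34, 5.93 and 6.20 TPM and 1.19, 1.76 and 2.37 TPM, and DNMT3L had no read. UHRF2 was at 365, 601 and 746 TPM against 0.422, 0.999 and 1.46 TPM for UHRF1, the partner of DNMT1 in somatic cells. DNMT3A, UHRF2 and DNMT1 were lowest in replicate 1. The oxidases TET1, TET2 and TET3 were at 3.07 ± 0.852 TPM, 1.58 ± 0.270 TPM and 1.48 ± 0.978 TPM, and the glycosylase TDG was at 50.4 ± 16.8 TPM. Genes of the methyl-CpG-binding domain 3-like family, short nuclear proteins, stood out: LOC110259658 was at 1451, 1591 and 1497 TPM and LOC102167984 at 401, 456 and 421 TPM. On this scale each varied by less than 1.2-fold. LOC100157664 and LOC102159280 had 4 and 0 reads. Among histones, H3F3A and LOC100521680, both genes of the replacement histone H3.3, were at 1249 ± 411 TPM and 1488 ± 137 TPM. Of 76 genes annotated as histones, 43 (56.6%) were detected, against 37.3% of all protein-coding genes. Most replication-dependent histone mRNAs lack a poly(A) tail, so their levels here need not show their abundance. NPM1, RBBP7 and ANP32B led the histone chaperones at 1368 ± 125 TPM, 282 ± 15.97 TPM and 231 ± 53.9 TPM. In that list 20 of 21 (95.2%) were detected, against the same 37.3%.

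Candidate genes of embryonic genome activation spanned a wide range of levels, and 11 of 13 were detected. Paired-like homeobox genes, which are known from human embryos for their brief activity at genome activation, were led by LEUTX at 1087, 1251 and 963 TPM. DUXA was at 267, 292 and 277 TPM and ARGFX at 212, 135 and 74.1 TPM. LEUTX and DUXA varied by less than 1.5-fold, whereas ARGFX was highest in replicate 1 and lowest in replicate 3. DPRX, of the same class, followed that order at 64.9, 28.9 and 17.5 TPM, and OTX2, which the oocyte stores in several species, was reversed at 62.9, 125 and 144 TPM. DPPA2, a factor of early chromatin, was at 455, 266 and 163 TPM and its partner DPPA4 at 7.15 ± 1.35 TPM. EIF1AX, a translation factor used as a marker of genome activation in pigs, was at 261, 164 and 117 TPM, and KLF17 was at 16.2 ± 2.85 TPM. ZSCAN4, a marker of the same stage in mice, had 9 reads in all. The tripartite motif genes TRIM43-like LOC100623167 and TRIM77-like LOC106504145 were at 696, 750.3 and 593 TPM and 332, 458 and 499 TPM, while 27 of 71 of that family were detected, close to the 37.3% of all protein-coding genes.

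In the pluripotency list 14 of 21 genes (66.7%) were detected, with a median of 4.35 TPM, against 37.3% and 0.456 TPM over all protein-coding genes. KLF4 led at 266, 159.9 and 116 TPM, highest in replicate 1. POU5F1 was at 21.0, 48.6 and 52.9 TPM, lowest in replicate 1, and SALL4 was level at 23.2, 26.4 and 28.4 TPM. NANOG on chromosome 5 varied by 1.09-fold. A second locus of that name, on chromosome 1 and overlapping THSD4 (169064134 to 169065292), was at 17.0, 17.5 and 13.5 TPM, and reads of the similar copies may have been assigned to either. SOX2 was at 0.314, 1.04 and 0.776 TPM from 47 reads, ESRRB at 1.72 ± 0.108 TPM and LIN28A at 8.13 ± 3.55 TPM, while TDGF1 had no read. Of 15 trophectoderm markers, 2 were detected: TFAP2C at 21.3, 20.2 and 19.4 TPM and TEAD4 at 1.84, 2.67 and 1.79 TPM. CDX2 and ELF3 had no read, which allows up to 0.0341 CPM over the group, and GATA3 was at 0.349 ± 0.280 TPM. In the primitive endoderm list 3 of 12 were detected, among them GATA6 at 27.4, 16.03 and 12.3 TPM and GATA4 at 2.43 ± 0.914 TPM. SOX17 had 21 reads. In the gastrulation list 4 of 13 were detected, MESP1 at 21.0, 38.2 and 46.1 TPM, GSC at 22.5 ± 5.32 TPM, LHX1 at 16.7 ± 2.70 TPM and HAND2 at 1.66 ± 0.534 TPM, while T and MIXL1 had no read. The detected shares of the endoderm and gastrulation lists, 25.0% and 30.8%, were near the 37.3% over all protein-coding genes. MESP1 was lowest and GATA6 highest in replicate 1.

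Markers of other cell types were mostly below detection. Over 10 lists of other tissues and cell types, 30 of 189 genes (15.9%) were detected, against 37.3% of all protein-coding genes. Of these 189, 72 (38.1%) had 3 or fewer reads, their median was 0.0712 TPM and their summed level 299.9 to 384 TPM. Cumulus and granulosa cells surround the oocyte and can be carried along with it. In their list 4 of 24 genes were detected, 10 had 3 or fewer reads, and the summed level was 32.7 to 35.9 TPM. FSHR, LHCGR, CYP11A1, AMH and FOXL2, which define these cells, had no read. The detected members were KITLG at 22.1, 22.0 and 18.3 TPM, INHBA on chromosome 12 at 2.89, 6.27 and 6.72 TPM, TNFAIP6 at 2.74, 1.65 and 1.56 TPM and NPR2 at 1.29, 1.35 and 1.28 TPM. In the sperm list 5 of 25 were detected, with LDHC at 20.8 ± 9.70 TPM and ZPBP2 at 19.3 ± 3.87 TPM, while the protamines PRM1, PRM2 and PRM3 and the acrosomal protease ACR had no read. No member of the blood list was detected, and its summed level was 3.38 to 4.05 TPM, led by LYZ at 1.06 ± 0.391 TPM.

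A few genes known from other tissues were detected in all 3 libraries at 10 TPM or more on average. The counts by list below compare with 37.3% detected over all protein-coding genes. GCG, the glucagon precursor, was at 57.2, 80.2 and 92.1 TPM, and F2, prothrombin, was at 31.0, 59.2 and 69.3 TPM. Both were lowest in replicate 1. In the pancreas and gut list 4 of 15 were detected, the others being VIL1 at 2.002 ± 0.444 TPM, LCT at 1.67 ± 0.532 TPM and AMY2 at 1.36 ± 0.320 TPM, while INS and SST had no read. In the liver list 3 of 21 were detected, the others being ALB at 5.19 ± 1.28 TPM and CYP7A1 at 3.36 ± 1.101 TPM, while TTR, FGA and SERPINA1 had no read. DSG1, a desmosomal cadherin of skin, was at 22.4, 20.7 and 14.4 TPM. In its list of lung, kidney, skin and retina genes 2 of 19 were detected, the other being the skin keratin KRT10 at 28.8, 8.62 and 3.74 TPM, while KRT1 and KRT5 had no read. LALBA, a milk protein, was at 16.9, 11.9 and 14.6 TPM, with TSHB at 2.25 ± 0.541 TPM, POMC at 1.38 ± 0.192 TPM and no read of CSN1S1 and PRL. TNNI3, cardiac troponin I, was at 5.11, 3.32 and 27.5 TPM, and thus in TPM high in replicate 3 and low in the other libraries. ACTC1 and TNNT1 were at 1.72 ± 0.642 TPM and 1.54 ± 0.437 TPM. Summed over these 3 detected muscle genes, replicates 1, 2 and 3 were at 0.478, 0.474 and 2.05 times their mean by TPM. By CPM the sums were at 0.809, 1.03 and 1.16 times their mean, so the summed reads showed no such large rise in replicate 3. In the neuron list 4 of 22 were detected, GAP43 at 5.10 ± 2.01 TPM, SLC17A7 at 3.65 ± 0.525 TPM, SYT1 at 2.54 ± 0.697 TPM and STMN2 at 1.78 ± 0.464 TPM. In the stromal and endothelial list VIM was at 9.62, 7.04 and 6.18 TPM and PECAM1 at 1.95 ± 0.746 TPM, and LUM, CDH5 and KDR had no read. Whether these reads come from the embryo's own transcripts was not tested.

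**Figure D4:**
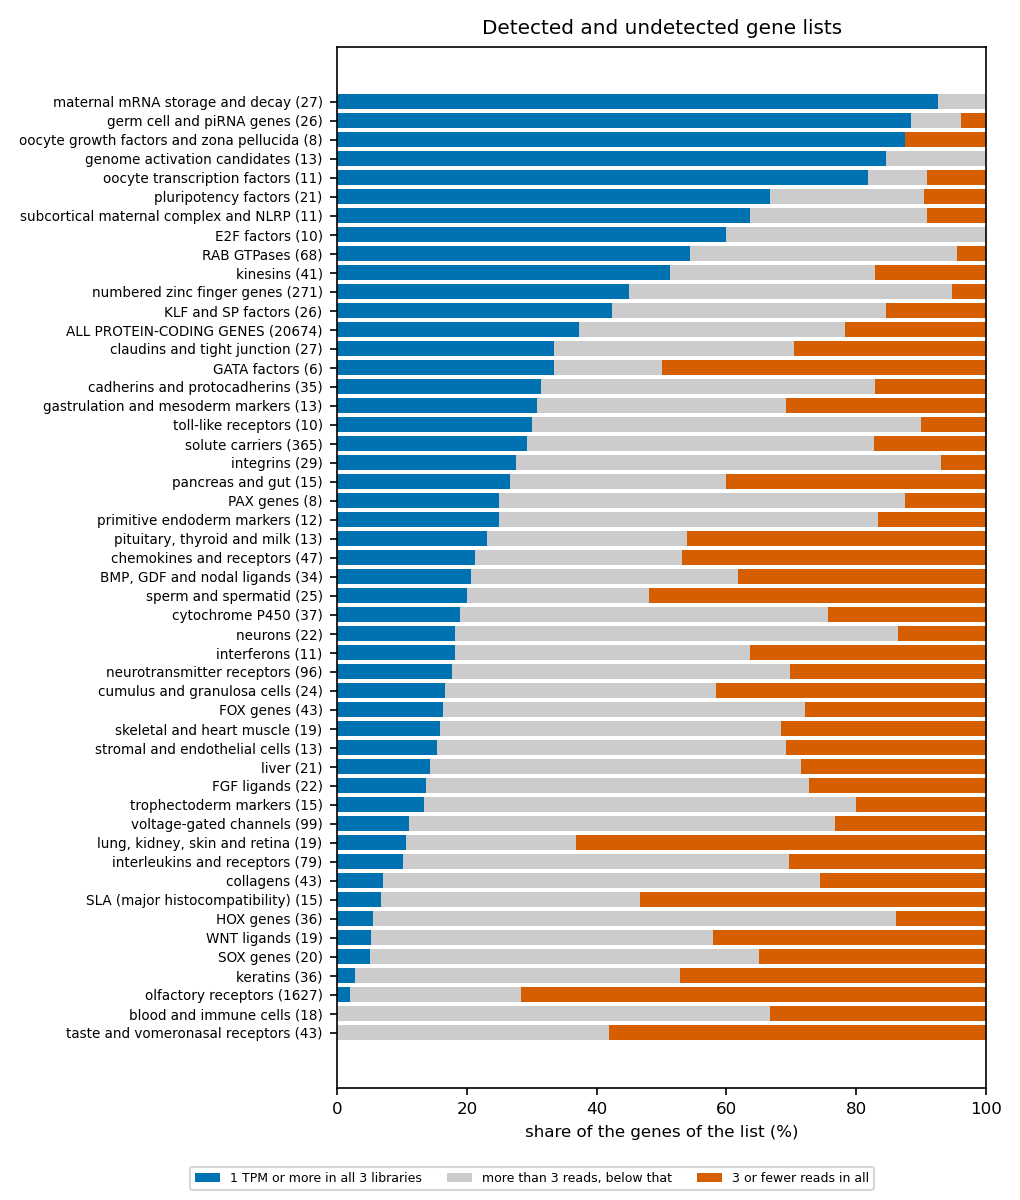
Share of the genes of each list (x axis, %) that were at 1 TPM or more in all 3 control libraries (blue), had more than 3 reads but stayed below that (grey), or had 3 or fewer reads in all 3 together (orange); the number of genes stands in brackets. Oocyte lists, genome activation candidates and pluripotency factors lie at the top with 63.6 to 92.6% detected, all protein-coding genes at 37.3%, and olfactory receptors at 1.97%.

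Several gene families of differentiated tissues had few detected members, though many others had some reads. Over all protein-coding genes, 37.3% were detected and 21.7% had 3 or fewer reads. Of 1627 olfactory receptor genes, the largest family of the pig genome, 32 (1.97%) were detected, 1166 had 3 or fewer reads and 893 of these had none, and 429 had more reads without being detected. The highest was LOC110261752 at 22.5 ± 5.27 TPM. None of 43 taste and vomeronasal receptors was detected. Of 36 HOX genes, which pattern the body axis, 2 were detected, HOXD8 at 6.52 ± 1.90 TPM and HOXC13 at 3.23 ± 0.322 TPM, and 29 more had over 3 reads. Among 36 keratins only KRT10 passed, at 28.8, 8.62 and 3.74 TPM, and KRT8 and KRT18 were at 0.0722 ± 0.0683 TPM and 0.482 ± 0.520 TPM. Collagens gave 3 of 43 (COL11A1, COL14A1 and COL4A6), with over 3 reads in 29 more, WNT ligands 1 of 19 (WNT16), SOX genes 1 of 20 (SOX4) and classical and related histocompatibility genes 1 of 15 (SLA-6). Those genes were at 7.97 ± 2.59 TPM, 7.57 ± 2.84 TPM, 1.61 ± 0.336 TPM, 2.13 ± 0.780 TPM, 10.8 ± 3.97 TPM and 8.45 ± 1.34 TPM.

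Y-linked genes were examined because the embryos came from activated oocytes. Of 150 genes placed on the Y chromosome, 107 had 3 or fewer reads. Against 30.02% detected over all annotated genes, 4 of the 150 (2.67%) were detected. Of these, 3 share an identifier with a gene on the X chromosome: PNPLA4 was at 88.0 ± 33.2 TPM on Y and 164 ± 53.8 TPM on X, and LOC102164143 and LOC102166006 were at 1.81 ± 0.516 TPM and 1.91 ± 0.549 TPM on Y. The remaining one, LOC102165752, was at 15.4 ± 5.25 TPM and overlaps PNPLA4. SRY had no read. Reads of genes that both chromosomes carry cannot be told apart here.

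The spread between the 3 libraries had a pattern of its own. Of 4356 genes at a mean of 10 TPM or more, 1207 (27.7%) had a highest library more than 2 times the lowest, and the median coefficient of variation was 23.8%. Between replicates 2 and 3 alone, 65 genes (1.49%) differed past 2-fold. The number was 432 (9.92%) between replicates 1 and 2, and 1182 (27.1%) between replicates 1 and 3. Replicate 1 was the highest or the lowest of the 3 for 91.4% of these genes, replicate 3 for 83.3% and replicate 2 for 25.3%.

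Some functional classes differed in the order of the libraries. Among all 7709 detected protein-coding genes, 33.3% were highest in replicate 1 and 56.6% lowest there. Of 79 ribosomal protein genes, 70 (88.6%) were highest in replicate 1, and 69 of them were lowest in replicate 3. Nuclear respiratory chain subunits were highest in replicate 1 in 49 of 67 cases and translation factors in 39 of 54. Genome activation candidates were highest there in 7 of 11. The reverse held for oocyte growth factors and zona proteins, lowest in replicate 1 in 6 of 7, and for genes of DNA methylation, 11 of 13. Maternal mRNA storage and decay genes were lowest there in 17 of 25 (68.0%), near the share over all genes.

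The scale chosen moves all genes together, which bears on these counts. On the TPM scale the median detected protein-coding gene was 0.26 lower (log2) in replicate 1 than in replicate 3, and on counts scaled by TMM (trimmed mean of M-values) it was 0.06 higher. With TMM scaling, 77 of 79 ribosomal protein genes were highest in replicate 1, against 47.8% of detected protein-coding genes. All 7 detected genes of the list of subcortical maternal complex and NLRP genes stayed lowest in replicate 1, against 41.5% of detected protein-coding genes, whereas genes of DNA methylation were lowest there in 8 of 13 and maternal mRNA storage and decay genes in 13 of 25. The stage, number and quality of the embryos behind each library are not given, and their part in this pattern was not tested.

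**Figure D5:**
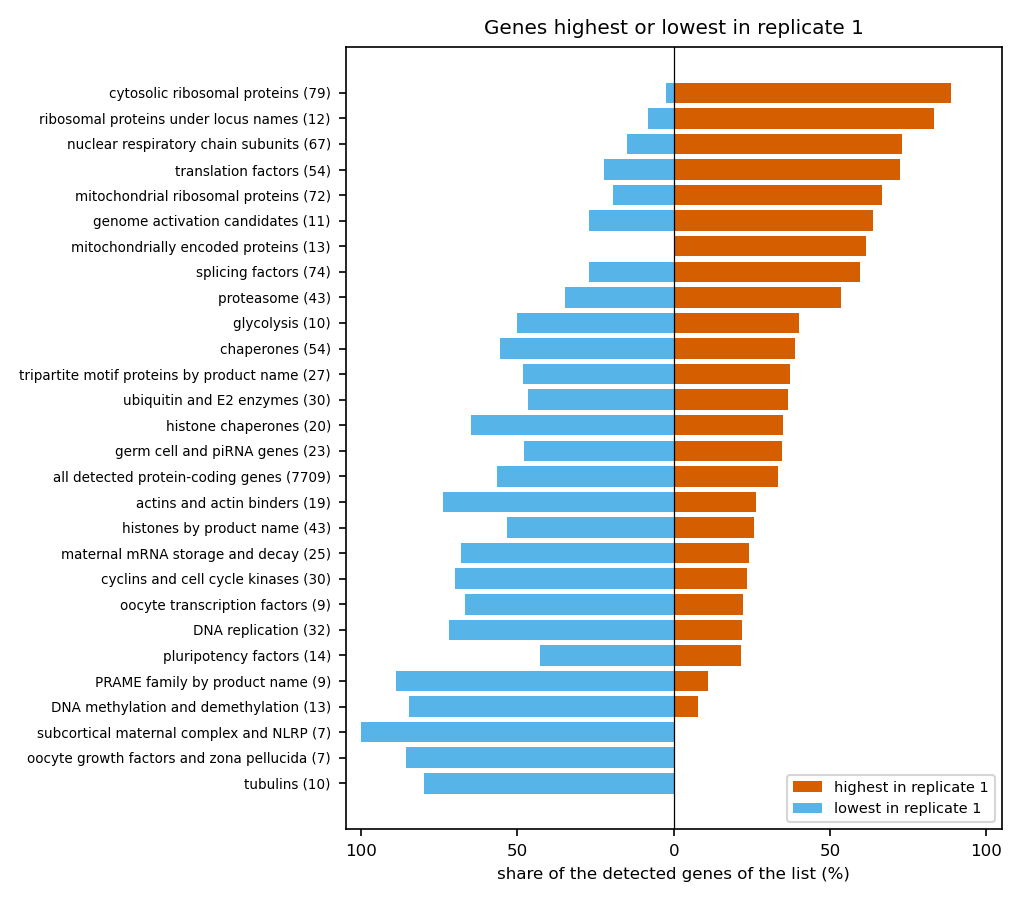
Share of the detected genes of each list (x axis, %) whose TPM was highest in replicate 1 (orange, to the right) or lowest in replicate 1 (blue, to the left); the number of detected genes stands in brackets. Ribosomal proteins, respiratory chain subunits and translation factors lie at the top with 72.2 to 88.6% highest in replicate 1. Tubulins, oocyte growth factors, and the list of subcortical maternal complex and NLRP genes lie at the bottom with none. All detected protein-coding genes lie between them at 33.3%.

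Single genes with the widest spread were examined with their overlapping neighbours. NCBP2, a subunit of the nuclear cap-binding complex, had 13777, 8366 and 0 reads in replicates 1, 2 and 3, and PIGZ, which overlaps it on the same strand, had 0, 0 and 5749. The summed counts of both genes were 2.40-fold apart, so reads of the shared span may have been counted for different genes in different libraries. METTL23 was at 178, 4.83 and 102 TPM and overlaps SRSF2, and their summed counts were 1.36-fold apart. SLC2A12, which overlaps TBPL1, had 12, 3938 and 7 reads, and the summed counts were 1.60-fold apart. SULT1E1, an estrogen sulfotransferase, overlaps no gene and was at 214, 65.4 and 11.2 TPM. CD86, an immune co-receptor, was at 73.2, 27.7 and 5.01 TPM and TIMP2, an inhibitor of matrix proteases, at 41.1, 10.9 and 2.89 TPM. All 3 were highest in replicate 1 and lowest in replicate 3, and so was DPCD at 28.4, 6.30 and 1.86 TPM. DPCD overlaps POLL and FBXW4, and the counts of the 3 genes together were 1.80-fold apart. C14H10orf35 was reversed, at 5.40, 34.2 and 63.6 TPM, and LOC102163442 had no read in replicate 3. At the other extreme, 5 nuclear genes were the most abundant of those that varied by less than 1.1-fold in TPM. They included LOC110259711 and LOC110259658, described above. The others were UBL5 at 2749, 2588 and 2751 TPM, UTP11, of ribosome biogenesis, at 668, 732 and 669.9 TPM, and SEC11A, a signal peptidase subunit, at 637, 700.1 and 662 TPM. Such steadiness depends on the scale. Summed over the 2 detected methyl-CpG-binding domain 3-like genes, replicates 1, 2 and 3 were at 0.955, 1.06 and 0.989 times their mean in TPM. On counts scaled by TMM they were at 1.09, 1.01 and 0.907 times. The 5 oocyte-secreted genes went from 1.01, 1.05 and 0.946 to 1.14, 0.996 and 0.868.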

How the data were processed

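Poly(A) RNA was measured in 3 control libraries. Read counts, FPKM, TPM and coverage per gene were computed by the authors and deposited in one table for the series and one per sample. Per the submitters' processing notes, the build was Sscrofa11.1 and the tools included StringTie 2.1.3b, HISAT2 2.1.0, Trimmomatic 0.38, Bowtie2 and HISAT, with no role stated. Which program counted reads is not given in the sources used. Deposited counts are whole reads per gene, deposited FPKM and TPM are scaled per length and library, and deposited coverage is the mean depth per base. Of the series table, 9 columns of values were not used. TPM in it equalled the library's own table for 99.2 to 99.3% of 30376 genes within 1e-05, and for at most 27.9% in another library's.

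Values were summarised with Python 3.11.15, numpy 2.4.6 and pandas 2.3.3, and plotted with matplotlib 3.10.9. A gene counted as detected at 1 TPM or more in all 3 libraries. Means and SDs are over 3 libraries, and nothing was tested, since there is a single group. The code for the measure of spread was run on simulated counts: of 200 genes changed 3-fold among 3443 with 1000 counts or more, 200 were recovered with 0 false calls. The simulated counts held counting error only and were scaled to the library total, not to TPM. Such a run checks the code and cannot show how far real libraries vary or how reads of overlapping genes are assigned. Genes of lower count and smaller changes were not simulated. TMM and median-of-ratios scalings of the counts were computed for the order of libraries only. Intervals for genes without reads cover counting error only.

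Genes were named by rule: the 30 nuclear genes of highest mean TPM, the 5 highest of each Type, up to 4 leading members of the lists described at length and the detected members where at most 4 were detected, a fixed set of markers, the 10 most variable genes with a mean of 10 TPM or more, and the 5 most abundant nuclear genes whose ratio of highest to lowest library was under 1.1. Other genes named by role, and all flanking and overlapping genes, were chosen after their values were seen. The genes, 66 lists and 11 lists added later were chosen with earlier results of these data known. Alternatives were other units, thresholds and totals, and leaving out each library.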

Additional observations from a re-analysis of the deposited data

How the results depend on the processing

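The spread between 3 libraries, of which replicate 1 stood apart, limits most levels, and depth limits the transcripts near 3 reads. No paired analysis was possible because a single group was described. Recomputing TPM from counts and gene length was not run, as no exon length is given. Detected genes numbered 14941 at 0.1 TPM, 5170 at 5 TPM, 14125 at 10 counts, and 9208 to 9834 with each library left out in turn. The number of genes holding 50% was 150.3 by read counts, 111.3 for nuclear genes only, and 21 to 22 with a library left out. Shares by FPKM equal those by TPM by construction and show nothing about stability. Of the 30 most abundant nuclear genes, 20 were among the first 30 by counts and 27 to 29 with a library left out. The protein-coding share was 86.9% by TPM, 93.0% of nuclear reads and 93.7 to 94.3% with a library left out. The lncRNA share was 6.49% of nuclear reads, 5.73% of TPM without mitochondrial tRNA genes (chosen after seeing the data) and 4.75 to 5.36% with a library left out. For tRNA the share was 7.24% by TPM, 0.000433% of nuclear reads, 0.000337% over genes with a symbol, 0.00497% of TPM without mitochondrial tRNA genes, and 0.377 to 0.396% with a library left out. By counts, the shares were 22.0% for mitochondrially encoded proteins, 1.08% for ribosomal proteins and 2.53% for oocyte-secreted proteins. Of nuclear TPM, the last 2 held 3.39% and 5.48%. With a library left out these 3 ranged from 29.1 to 30.3%, 1.66 to 2.46% and 3.36 to 3.54%. Over 77 lists, 61 shares moved past 1 SD by counts, and 74 of 76 with the nuclear total. Of the markers of other cell types, 147 were under 1 TPM in all 3 libraries, and 76 to 82 had 3 or fewer reads with a library left out. Genes past 2-fold between libraries numbered 3405 at a mean of 1 TPM or more and 443 at 50 TPM or more, and 2508 were past 1.5-fold. Without replicate 1 the number was 65, without replicate 2 it was 1182 and without replicate 3 it was 432.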

Other observations

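Of 43 FOX genes, 7 were detected, and FOXR1 led at 71.1, 151 and 181 TPM, lowest in replicate 1. Of 8 PAX genes, 2 were detected, PAX6, known from eye and brain, at 43.8, 77.3 and 86.4 TPM and PAX9 at 1.20 ± 0.144 TPM. Among KLF and SP factors 11 of 26 were detected. Zinc finger genes with numbered names gave 122 of 271 (45.0%), and both shares were near the 37.3% of all protein-coding genes.

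The PRAME family, whose genes are known from germ cells and early embryos, had 9 of 10 members detected, led by LOC100737881 at 22.3, 48.3 and 47.6 TPM and LOC100625127 at 15.5, 32.5 and 37.2 TPM. Reads of similar copies may have been split between them. In the motor family, 21 of 41 kinesins were detected, and 107 of 365 solute carriers (29.3%) were. Voltage-gated channels gave 11 of 99 and neurotransmitter receptors 17 of 96, against 37.3% of all protein-coding genes.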
